A study of Mus musculus with 18 samples.

Results

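A set of 9 genes of major histocompatibility complex (MHC) class I presentation were followed in RNA-seq libraries labelled HL-1, a line of immortalised cardiomyocytes that came from a mouse atrial tumour. They were the heavy chain genes H2-D1, H2-K1, H2-T23 and H2-M10.1, the light chain gene B2m, the peptide transporter genes Tap1 and Tap2, the tapasin gene Tapbp and the transcriptional regulator Nlrc5. These 9 symbols were picked from the 29112 listed genes because H2-M10.1 had few reads in untransfected cells and many in the inhibitor control. The levels of that gene in those groups are therefore given as a description, with no test. All 9 passed the filter on low counts that left 15074 genes.

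Class I molecules carry peptides of cytosolic proteins to the cell surface, where CD8+ T cells and natural killer cells read them. The proteasome cuts the peptides, the transporter of Tap1 and Tap2 pumps them into the endoplasmic reticulum, and tapasin holds an empty heavy chain with β2-microglobulin beside the transporter until a peptide binds. NLRC5 drives the heavy chain, B2m and transporter promoters, together with the RFX factors, and interferon gamma raises the whole set. Cardiomyocytes are known for low class I levels at rest.

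The 18 libraries fell into 6 groups of 3, all labelled HL-1. The transfected groups were cells in high glucose given an inhibitor of miR-200a-3p, cells in high glucose given the negative control of the inhibitor, cells in high glucose given a miR-200a-3p mimic, and cells in high glucose given the mimic control oligonucleotide. Harvest followed 48 h after transfection. The untransfected groups were cells in high glucose and cells given vehicle. Every transfected group, the negative controls included, was in high glucose, so that vehicle was the only group without it. How much glucose was used, for how long, and whether the untransfected cells were given transfection reagent is not stated in the labels. Nor is it stated that replicates are separate cultures, and p-values here therefore measure only how far these samples spread, possibly for technical reasons.

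Library totals were 33655916 to 37928790 reads. Of 9 cardiomyocyte markers in the table, Nppa had 0 or 1 read in every library, Myh6 had 0 to 7, Actc1 0 to 14 and Tbx5 0 to 4 reads. Ryr2 had 6 to 22 reads and Nkx2-5 had 5 to 80 reads. Myl4 had 34 to 221 reads, Gata4 had 281 to 496 reads and Tnnt2 had 505 to 2765 reads. The cardiomyocyte label was thus met only in part. Fibroblast markers summed over 6 genes were at 783 to 855 CPM (reads scaled to library size, with TMM factors) in the inhibitor, 849 to 887 CPM in the inhibitor control, 496 to 523 CPM in the mimic, 568 to 578 CPM in the mimic control, 1926 to 2290 CPM in untransfected high glucose and 1594 to 1761 CPM in vehicle. Mimic replicate 2 stood apart, with 10 macrophage markers summing to 1252 CPM against 52.6 and 54.6 CPM in the other mimic libraries, and results that rest on it are given with and without it. In bulk RNA, fewer cells of a type and less RNA per cell cannot be told apart.

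The agent under test is shown first, as the mature miR-200a-3p of RefSeq (GRCm38.p6, chromosome 4, minus strand), with its seed, bases 2 to 8, in capitals. A site in a target is the reverse complement of that seed.
miR-200a-3p: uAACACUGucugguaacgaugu
The seed match was searched as CAGTGTTA, CAGTGTT or AGTGTTA in the 3′ untranslated region of the canonical transcript of each member (GENCODE M39). None of the 9 regions, which were 212 to 1197 bases long, held a match. Of 12899 genes past the filter with such a region, 27.6% held at least 1. These letters being absent from these windows says nothing on indirect regulation.

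Promoters of 5 members are shown because the heavy chain genes H2-D1 and H2-K1 kept together across the libraries while H2-M10.1 did not, and B2m and Tapbp are their partners. Each is the 170 bases before the annotated start, 5′ to 3′, from RefSeq (GRCm38.p6). The windows are chr17:35262924-35263093 (plus strand) for H2-D1, chr17:34000348-34000517 (minus strand) for H2-K1, chr17:36326151-36326320 (minus strand) for H2-M10.1, chr2:122147517-122147686 (plus strand) for B2m and chr17:33919308-33919477 (plus strand) for Tapbp. Capitals mark GGGATTCCC (a kappa B sequence), TTTCNNTTC (part of an interferon response element), the longer form of that element (TTTC, any 2 bases, TTTC), TGACG (the core of a cyclic AMP response element) and CCAAT, each searched on both strands, with no overlap among the matches.
H2-D1: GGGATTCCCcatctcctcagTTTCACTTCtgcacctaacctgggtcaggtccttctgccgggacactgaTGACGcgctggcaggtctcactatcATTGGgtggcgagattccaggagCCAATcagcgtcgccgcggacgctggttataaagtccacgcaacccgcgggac
H2-K1: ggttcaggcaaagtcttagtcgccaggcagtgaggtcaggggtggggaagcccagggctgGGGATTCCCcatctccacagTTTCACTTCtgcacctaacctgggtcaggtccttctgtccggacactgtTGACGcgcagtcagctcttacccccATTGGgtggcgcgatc
H2-M10.1: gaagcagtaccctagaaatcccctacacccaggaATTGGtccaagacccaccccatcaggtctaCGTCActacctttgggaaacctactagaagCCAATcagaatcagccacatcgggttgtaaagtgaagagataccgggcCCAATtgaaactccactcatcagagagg
B2m: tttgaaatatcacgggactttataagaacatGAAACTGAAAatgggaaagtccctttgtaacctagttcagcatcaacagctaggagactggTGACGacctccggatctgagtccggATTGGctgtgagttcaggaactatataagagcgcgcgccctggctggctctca
Tapbp: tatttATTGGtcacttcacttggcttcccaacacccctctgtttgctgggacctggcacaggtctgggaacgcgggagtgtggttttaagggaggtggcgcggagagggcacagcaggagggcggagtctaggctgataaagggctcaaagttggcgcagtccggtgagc
H2-D1 and H2-K1 held GGGATTCCC, TTTCNNTTC, TGACG and CCAAT in the same order, with the kappa B letters starting at base -170 of H2-D1 and at base -110 of H2-K1. H2-M10.1 held CCAAT on either strand at bases -136, -76 and -28 and the TGACG core on the minus strand at base -106, and none of the kappa B or interferon element letters searched. B2m held the longer interferon element form on the minus strand at base -139, TGACG and CCAAT, and of the letters searched Tapbp held CCAAT. Over 32851 promoter windows of the same length, GGGATTCCC was found in 0.158%, TTTCNNTTC in 4.12%, the longer form in 1.87%, TGACG in 14.4% and CCAAT in 26.6%. The letters were picked after the member promoters had been read, so the matches are a description and no test. The H2-D1 kappa B match begins at the first base of the window. Bases further upstream were not searched, so letters reported as absent are absent from these 170 bases only. Of the other members, H2-T23 held the longer interferon element form at base -124 and CCAAT, and Tap1 held TGACG, and a promoter was matched for 7 of the 9 members.

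Of the 9 members 7 lie on mouse chromosome 17 (GRCm39, GENCODE M39), with B2m on chromosome 2 and Nlrc5 on chromosome 8. Their coding sequences differ in how alike they are. H2-D1 and H2-K1 were 91.5% identical over 1077 aligned bases, and H2-M10.1 was 67.5% identical to H2-K1, 68.0% to H2-D1 and 68.6% to H2-T23. Since the authors counted uniquely mapped reads, the split of reads between H2-D1 and H2-K1 is uncertain, and a loss of reads shared by both is possible. Tapbp shares 3422 bases on the same strand with Zbtb22, which averaged 39.8 CPM in the mimic control and 38.1 CPM in high glucose, so reads of the shared bases may be assigned to either gene. The other overlaps with listed genes were on the opposite strand, and the strand setting of the counts was not given in the sources used here. Of those partners A930015D03Rik, opposite H2-T23, was the highest, at up to 9.09 CPM. It shares 5343 bases with H2-T23. Its mean was 8.21 CPM in the mimic control, 4.96 CPM in the inhibitor control and 4.55 CPM in high glucose. Its part in the H2-T23 counts was not tested.

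**Figure D1:**
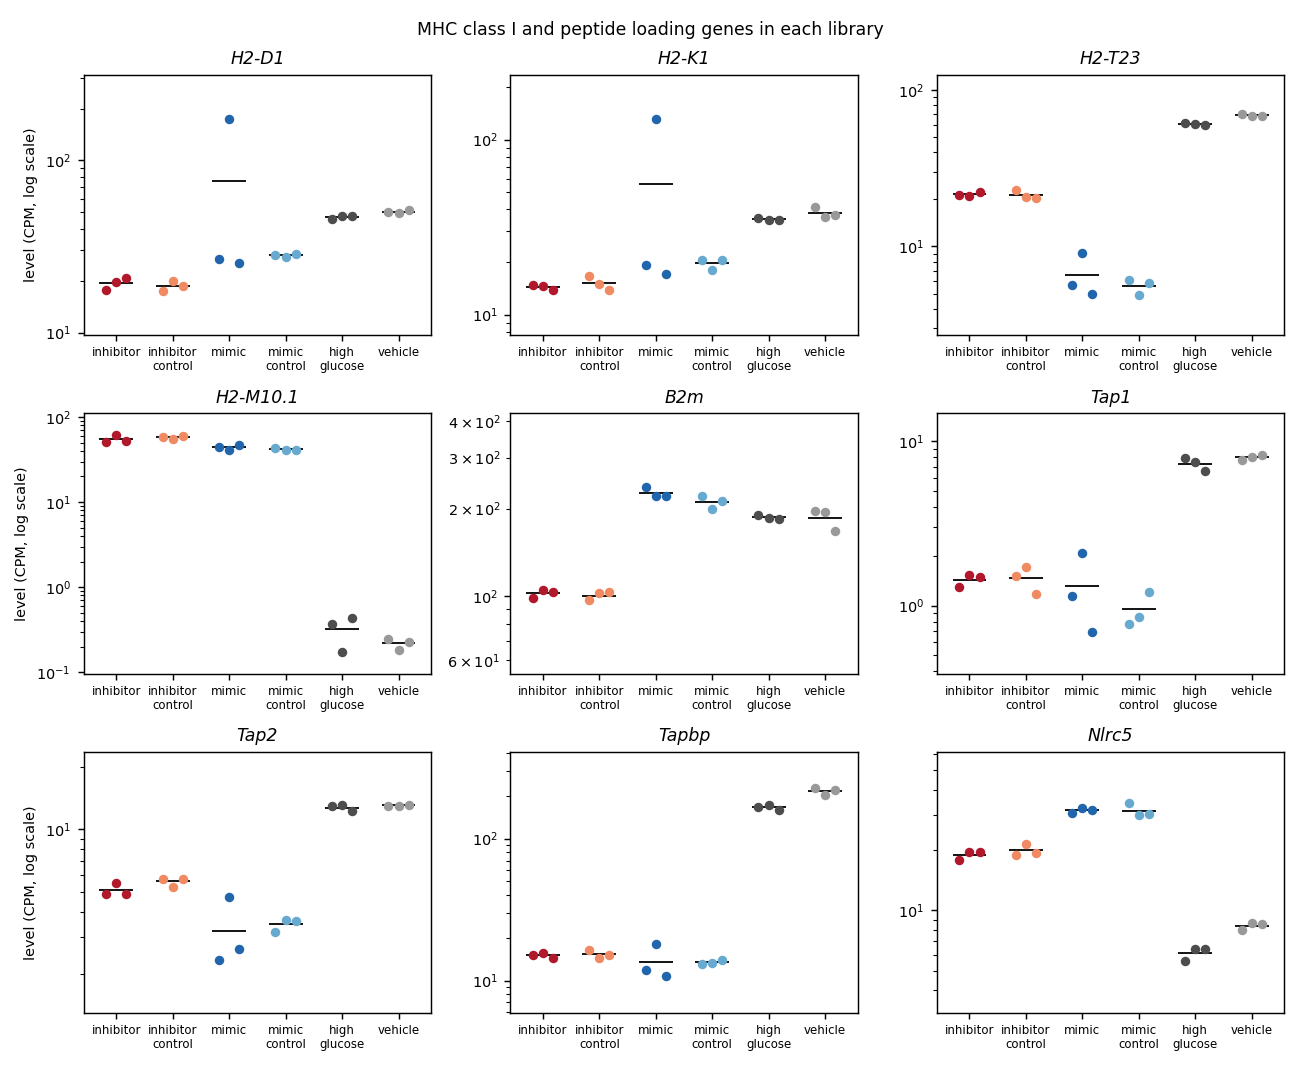
Level of each of the 9 genes in each library (CPM, log axis, its own range per panel), by group, with the 3 replicates side by side from 1 to 3 and a line at the mean. H2-M10.1 separates the transfected from the untransfected groups, and mimic replicate 2 stands at 175 CPM for H2-D1 and 131 CPM for H2-K1.

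On the per-length scale the members spanned a wide range. In high glucose the mean FPKM (fragments scaled to transcript length and depth) was 218 for B2m, 46.0 for Tapbp, 21.1 for H2-T23, 18.3 for H2-D1, 12 for H2-K1, 3.38 for Tap2, 1.34 for Tap1, 0.723 for Nlrc5 and 0.237 for H2-M10.1. In the inhibitor control B2m was again the highest, at 115 FPKM, but H2-M10.1 came next at 40.6 FPKM. There H2-T23 (7.26 FPKM), H2-D1 (7.12 FPKM), H2-K1 (5.07 FPKM) and Tapbp (4.15 FPKM) followed, above Nlrc5 (2.31 FPKM), Tap2 (1.45 FPKM) and Tap1 (0.263 FPKM). H2-T23 and H2-D1 differed there by less than their SDs of 0.509 and 0.496 FPKM. In the inhibitor control, H2-M10.1 was thus the most abundant heavy chain transcript of the 4. That rank is a description, since its level there chose the list. It was also the highest of the 4 by mean in the mimic control, at 26.7 FPKM, with H2-D1 next at 9.77 FPKM.

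H2-M10.1 encodes a nonclassical heavy chain, known in mice from vomeronasal sensory neurons. It had 50.8, 61.3 and 52.3 CPM in the inhibitor and 57.5, 55.0 and 60.2 CPM in the inhibitor control. It had 44.7, 40.9 and 46.7 CPM in the mimic and 43.3, 41.2 and 40.5 CPM in the mimic control. In high glucose it had 0.369, 0.173 and 0.433 CPM, which were 13, 6 and 16 reads, and in vehicle 0.246, 0.184 and 0.227 CPM, which were 9, 7 and 8 reads. All 12 transfected libraries stood far above all 6 untransfected ones, and the untransfected counts were above the 3 reads that a count of 0 allows. In order, the inhibitor control (57.6 ± 2.61 CPM, SD, n = 3) and the inhibitor (54.8 ± 5.66) overlapped, as did the mimic (44.1 ± 2.93) and the mimic control (41.7 ± 1.44), and as did high glucose (0.325 ± 0.135) and vehicle (0.219 ± 0.0313). The log2 fold change was 7.44 for the inhibitor control over high glucose (174-fold) and 6.98 for the mimic control over high glucose (126-fold). The levels in high glucose and in the inhibitor control are those that chose the list. On the log2(FPKM + 1) scale they were 5.07 and 4.49, since the pseudocount lifts the low group. Of 5 vomeronasal markers 3 were in the table, and their sum was 59.7 to 66.1 CPM in the inhibitor control, 91.3 to 99.2 CPM in the mimic control and 173 to 196 CPM in high glucose. Nearly all of that sum was Gnao1, with Vmn2r1 at no more than 0.0309 CPM in any library. Omp, the olfactory marker protein gene, averaged 0.377 CPM in the inhibitor control, 0.182 CPM in the mimic control and 0.16 CPM in high glucose. The part of these markers in the H2-M10.1 levels was not tested.

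The test left to H2-M10.1 was mimic against mimic control, in which the groups overlapped. Its log2 fold change was 0.08 ± 0.075 (SE; adjusted p = 0.433, edgeR's quasi-likelihood test with Benjamini-Hochberg adjustment, used for every adjusted p below). Without mimic replicate 2 it was 0.13 (adjusted p = 0.195).

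The transcripts most like H2-M10.1 over the 18 libraries were chosen by Pearson correlation of log2 CPM among 12889 genes. They were Eif4a1 (r = 0.997), an RNA helicase of translation initiation, Bcat1 (0.997), a branched-chain aminotransferase, Dyrk4 (0.997), a kinase, Elmo1 (0.996), a partner of DOCK proteins, Dip2c (0.996) and Polq (0.995), a DNA polymerase of end joining. Dyrk4 had 18.2 CPM in the inhibitor control, 17.4 CPM in the mimic control, 0.439 CPM in untransfected high glucose and 0.456 CPM in vehicle. Bcat1 had 127 CPM in the inhibitor control, 118 CPM in the mimic control, 14.8 CPM in untransfected high glucose and 11.3 CPM in vehicle. The correlation does not measure the size of a difference, and some of these genes differed much less. Eif4a1 had 427 CPM in the inhibitor control, 422 CPM in the mimic control, 193 CPM in untransfected high glucose and 182 CPM in vehicle. Dip2c had 107, 101, 41.4 and 41.2 CPM in these groups. The pattern was a common one, since 1640 of the 12889 genes correlated above 0.9, and the libraries fall into clusters of transfected and untransfected cells, so r is a description. Among the members, Nlrc5 (0.911) ran with H2-M10.1, and Tapbp (-0.991), Tap1 (-0.951), Tap2 (-0.894) and H2-T23 (-0.812) ran against it. H2-D1 (-0.529), H2-K1 (-0.541) and B2m (-0.357) followed it less closely. Only genes with r above 0.9 were counted, so the negative values stand without a background share.

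The region around H2-M10.1 (chr17:36633750-36637047, minus strand, GRCm39) holds several of its relatives. Within 200 kb, 14 genes were in the count table of 48 annotated, and 5 passed the filter, H2-M10.1 included. H2-M10.4, at 132.8 kb, had 11, 9 and 13 reads in the inhibitor, 11, 16 and 5 in the inhibitor control, 11, 17 and 17 in the mimic and 12, 8 and 10 in the mimic control, against 0 reads in every high glucose and vehicle library. Its reads were thus seen in all transfected libraries and in no untransfected one, at a level far below that of H2-M10.1. H2-M10.2 had 1 to 12 reads in each transfected library, 0 reads in high glucose and 1 read in all of vehicle. Their coding sequences were 84.8% (H2-M10.4) and 87.3% (H2-M10.2) identical to that of H2-M10.1, so that reads shared between these copies may be misassigned. Trim39, a ubiquitin ligase gene 50.6 kb away, was higher in the mimic control (27.9 CPM) than in high glucose (15.7 CPM), with a log2 fold change of 0.83 (adjusted p = 6.64e-12). Rpp21, a ribonuclease P subunit gene 64.8 kb away, had 10.7 CPM in the mimic control and 4.89 CPM in high glucose (log2 fold change 1.13, adjusted p = 3.91e-11), and 4.81 CPM in the inhibitor control. Gm8909, annotated as H2-T5, also passed the filter and went the other way. It had 0.104 CPM in the mimic control, near the floor, and 0.303 CPM in high glucose (log2 fold change -1.53). Of all genes, 78.9% were called in this comparison, so calls among neighbours are common.

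**Figure D2:**
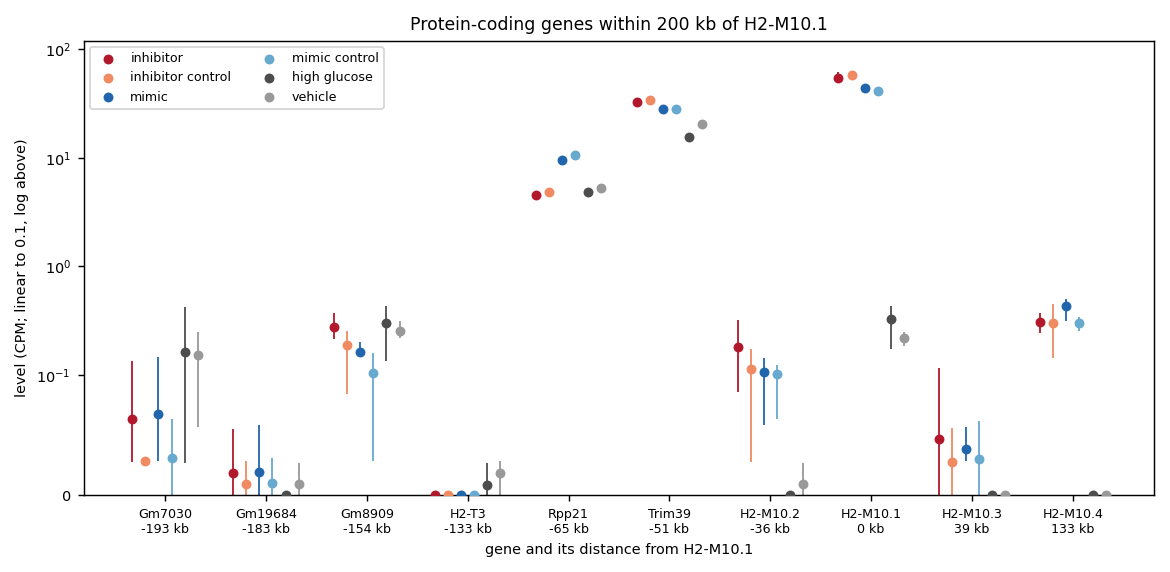
Mean level in each group (points) with the lowest and highest library (lines) for the protein-coding genes within 200 kb of H2-M10.1, in CPM on an axis that is linear up to 0.1 and logarithmic above. H2-M10.1 is below 0.5 CPM in high glucose and vehicle and above 40 CPM in the 4 transfected groups, while Trim39 spans 15.7 to 34.1 CPM by group mean.

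The inhibitor of miR-200a-3p was compared with its negative control. None of the 8 tested members passed the test, and H2-M10.1 was not tested. Over all 15074 genes, 0% were called (adjusted p under 0.05), with 447 at an unadjusted p under 0.05, 0 called by DESeq2 and 1 when the pair was fitted alone. H2-D1 had 17.8, 19.8 and 20.7 CPM in the inhibitor, against 17.5, 20 and 18.6 CPM in the inhibitor control. B2m had 98.6, 105 and 103 CPM in the inhibitor, against 97.0, 102 and 103 CPM in the inhibitor control. In both genes the groups overlapped, as they did in every member. The log2 fold changes of the 8 tested members lay between -0.14 (Tap2, SE 0.152) and 0.05 (H2-D1, SE 0.486), each with an adjusted p of 1, and that of H2-M10.1 was -0.07. With SEs of 0.486 for H2-D1 and 0.509 for H2-K1, a change of those genes was not excluded in this fit. The wide error of H2-D1 and H2-K1 came with mimic replicate 2 in the shared fit, since without it the SE was 0.063 for H2-D1 and 0.0767 for H2-K1. None of the 44 measured genes of the related lists was called either. The smallest p of each list belonged to H2-Q4 (log2 fold change -0.18) and H2-M5 (0.32) among heavy chains, Hfe (0.52) and Fcgrt (-0.05) among class I-like genes, Psmb10 (-0.11) and Psmb8 (-0.42) of the immunoproteasome, Calr (-0.07) and Erap1 (0.10) of chaperones and trimming, Rfxap (-0.11) and Ifnar2 (-0.11) of the regulators and H2-DMa (0.25) and Cd74 (0.14) of class II.

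The mimic was set against the mimic control. H2-D1 and H2-K1 rose, and both calls came from mimic replicate 2. H2-D1 had 26.7, 175 and 25.5 CPM in the mimic, against 28.2, 27.4 and 28.8 CPM in the mimic control. H2-K1 had 19.1, 131 and 17.1 CPM in the mimic, against 20.6, 17.9 and 20.6 CPM in the mimic control. Apart from mimic replicate 2, the H2-D1 levels in the mimic lay below those of all mimic control libraries, and for H2-K1 the groups overlapped. The log2 fold change was 1.43 ± 0.455 for H2-D1 (adjusted p = 0.0205) and 1.50 ± 0.477 for H2-K1 (adjusted p = 0.0205). Without mimic replicate 2 it was -0.11 (adjusted p = 0.256) and -0.13 (adjusted p = 0.282). Thus 2 of 9 members were called, both higher, where 33.7% of all genes were called in either direction, and without that library 2 were called, both lower, where 26.6% of genes were.

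The light chain B2m had 237, 222 and 221 CPM in the mimic, against 221, 199 and 212 CPM in the mimic control. Its log2 fold change was 0.11 (adjusted p = 0.153), with every mimic library at or above the highest mimic control library. The transporter subunit gene Tap2 had 2.34, 4.69 and 2.63 CPM in the mimic, against 3.19, 3.66 and 3.62 CPM in the mimic control. Mimic replicate 2 lay above all controls and the other mimic libraries below them. The log2 fold change was -0.12 (adjusted p = 0.648), and without mimic replicate 2 it was -0.49 ± 0.122 (adjusted p = 0.00441). Tapbp, which encodes the bridge to the transporter, had 11.9, 18 and 10.7 CPM in the mimic, against 13.1, 13.3 and 14 CPM in the mimic control. Its log2 fold change was 0.01 (adjusted p = 0.971), and -0.25 ± 0.0797 (adjusted p = 0.0219) without mimic replicate 2. The others did not pass the test with or without that library. H2-T23 was at 0.22 (adjusted p = 0.267), Tap1 at 0.47 (adjusted p = 0.205) and Nlrc5 at 0.00 (adjusted p = 0.979).

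Mimic replicate 2 differed from the other mimic libraries in more than class I. H2-K1 was 7.26 times and H2-D1 6.71 times the mean of replicates 1 and 3, Tap1 2.29, Tap2 1.89, H2-T23 1.71 and Tapbp 1.59 times, whereas Nlrc5 (1.04), B2m (0.971) and H2-M10.1 (0.896) were near it. The classical heavy chains and the loading genes were thus up in that library, and the light chain was not. Psmb8, an immunoproteasome subunit, was 13.2 times as high at 4.93 CPM, and Cd74, the class II invariant chain, reached 9.15 CPM against 0.827 and 0.955 CPM in the other mimic libraries. The macrophage genes Lyz2, at 870 CPM, and Csf1r, at 53.1 CPM, were 57.6 and 50.7 times as high. Of the 10 macrophage markers 9 were higher in mimic replicate 2 than in any other of the 18 libraries, and their sum elsewhere was 35.1 to 70.5 CPM. The 7 class II genes summed to 29.0 CPM in mimic replicate 2, against 1.88 and 2.34 CPM in the other mimic libraries. The part of these transcripts in the H2-D1 and H2-K1 calls was not tested, and the calls end without that library.

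**Figure D3:**
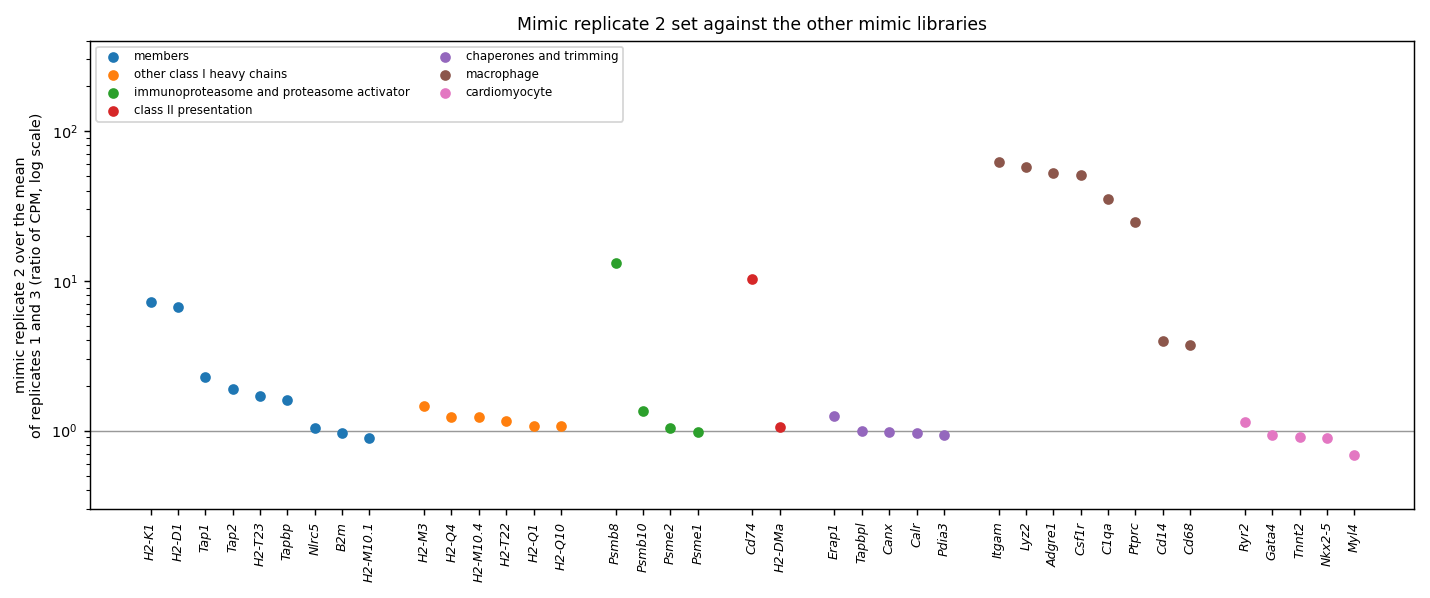
Ratio of mimic replicate 2 to the mean of mimic replicates 1 and 3 (CPM over CPM, log axis) for the 9 genes and related lists, for genes with a mean of at least 0.25 CPM in replicates 1 and 3. H2-K1 (7.26) and H2-D1 (6.71) lie below Itgam (62.1) and Lyz2 (57.6), and B2m (0.971) lies near 1.

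Of 44 measured related genes 12 (27.3%) were called under the mimic, where 33.7% of all genes were, and 6 (13.6%) without mimic replicate 2, where 26.6% of all genes were. Of 9 measured other heavy chains 2 rose and none fell. These were H2-T24 (adjusted p = 0.0488), on 3, 40 and 0 reads in the mimic, against 4, 1 and 2 reads in the mimic control, and H2-T22 (log2 fold change 0.27, adjusted p = 0.00459). Without mimic replicate 2 neither passed, with H2-T24 at an adjusted p of 0.645 and H2-T22 at 0.20 (adjusted p = 0.0526). Of 4 immunoproteasome and activator genes Psmb8 rose (2.94, adjusted p = 0.00498), and of 2 measured class II genes Cd74 rose (1.57, adjusted p = 0.046). Without mimic replicate 2 Psmb8 was at 0.61 (adjusted p = 0.271) and Cd74 at -0.46 (adjusted p = 0.168). Calls also made without it were Mr1 (0.54, adjusted p = 0.000215, and 0.53 without it), the only gene called of 4 class I-like genes, which encodes the presenter of vitamin B metabolites, and Calr (-0.38, adjusted p = 0.000713, and -0.36 without it), the only one called of 5 chaperone and trimming genes. Of 20 regulators 3 rose and 3 fell, among them Creb1 (0.34, adjusted p = 0.000875), Jak2 (0.30, adjusted p = 0.00664) and Ifngr1 (0.32, adjusted p = 0.00623), against Irf9 (-0.33, adjusted p = 0.000354). Without mimic replicate 2 the calls of Ifngr1 (0.18, adjusted p = 0.0543) and Nfyc (-0.20, adjusted p = 0.0268, and then -0.18, adjusted p = 0.0763) were lost.

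The mimic control was compared with untransfected high glucose, groups that share high glucose and differ, by their labels, in transfection. H2-T23, Tap1, Tap2 and Tapbp were lower and Nlrc5 and B2m higher in the mimic control. These are 6 of 8 tested members, 4 of them lower, where 78.9% of all genes were called in either direction and 39.9% were called lower, so the number of calls was near the background. The median log2 fold change was -1.35 over the 8 members without H2-M10.1 and 0.01 over all genes.

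Among the heavy chains, H2-T23, the gene of Qa-1, which is read by natural killer cell receptors, had 6.07, 4.90 and 5.87 CPM in the mimic control, against 61.6, 60.6 and 59.8 CPM in high glucose. The groups did not overlap, and the level was 10.8-fold lower in the mimic control (log2 fold change -3.43 ± 0.131, adjusted p = 2.12e-15). The classical genes were also lower in every mimic control library. H2-D1 had 28.2, 27.4 and 28.8 CPM in the mimic control, against 45.6, 47.8 and 47.4 CPM in high glucose. H2-K1 had 20.6, 17.9 and 20.6 CPM in the mimic control, against 35.9, 34.8 and 34.9 CPM in high glucose. Neither passed the test in the shared fit (H2-D1 -0.74, adjusted p = 0.146; H2-K1 -0.83, adjusted p = 0.118). With mimic replicate 2 left out of that fit both were called at the same sizes (adjusted p = 5.32e-12 for H2-D1 and 2.43e-11 for H2-K1).

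The light chain moved little. B2m had 221, 199 and 212 CPM in the mimic control, against 190, 186 and 185 CPM in high glucose, with no overlap. The log2 fold change was 0.17 ± 0.056 (adjusted p = 0.00856). On the deposited FPKM it was 0.00 by limma (adjusted p = 0.958 with a pseudocount of 1). The call was thus made on the TMM-scaled counts and not on the FPKM. TMM factors were 0.917, 0.906 and 0.913 in the mimic control and 1.025, 1.011 and 1.041 in high glucose. Before scaling, B2m had 7686, 6268 and 6846 reads in the mimic control. It had 6694, 6421 and 6851 reads in high glucose, so the unscaled groups overlapped.

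The peptide loading genes were lower throughout. Tap1 had 0.777, 0.858 and 1.21 CPM in the mimic control, against 7.86, 7.46 and 6.55 CPM in high glucose, 7.69-fold lower (log2 fold change -2.94 ± 0.244, adjusted p = 7.14e-10). Tap2 had 3.19, 3.66 and 3.62 CPM in the mimic control, against 12.9, 13.1 and 12.3 CPM in high glucose, 3.65-fold lower (-1.87 ± 0.153, adjusted p = 5.98e-10). In neither transporter gene did the groups overlap. Tapbp had 13.1, 13.3 and 14 CPM in the mimic control, against 166, 173 and 159 CPM in high glucose. This 12.4-fold difference (log2 fold change -3.63 ± 0.115, adjusted p = 1.14e-16) was the largest of the tested members.

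The regulator went the other way. Nlrc5 had 34.2, 29.9 and 30.4 CPM in the mimic control, against 5.56, 6.39 and 6.44 CPM in high glucose. It was 5.13-fold higher in the mimic control, with no overlap (log2 fold change 2.36 ± 0.0745, adjusted p = 1.05e-16). Of the genes it is known to drive, H2-T23 and Tap1 were lower there. H2-D1 (-0.74) and H2-K1 (-0.83) were lower too, though neither passed the test in the shared fit with mimic replicate 2. B2m was slightly higher on the TMM-scaled counts (log2 fold change 0.17) and was not called on the FPKM. The part of Nlrc5 in these levels was not tested. Fibroblast markers moved with these results, at 568 to 578 CPM in the mimic control and 1926 to 2290 CPM in high glucose, with 4 of 5 measured members lower, none higher, and Lum at no more than 0.135 CPM in any library. Their part in the members' changes was not tested.

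Other genes of the pathway were read from lists in the same comparison. Over these lists 35 of 44 measured genes (79.5%) were called, where 78.9% of all genes were, so the number called was at the background. Of 9 measured other heavy chains 5 were lower, with H2-T22 at -2.59 (adjusted p = 2.22e-18) and H2-Q4 at -1.81 (adjusted p = 2.23e-14). H2-T24, counted among the 5, had 4, 1 and 2 reads in the mimic control, against 20, 26 and 29 reads in high glucose. Its mimic control counts lie near the floor of 3 reads, so its call is not read here. H2-M10.4, with 0 reads in high glucose, passed the filter only through the transfected groups, and its call is not read here. Both genes remain in the 35 of 44. Of 4 class I-like genes 3 were lower, namely Fcgrt (-3.12, adjusted p = 1.08e-20), the neonatal Fc receptor, Mr1 (-3.07, adjusted p = 8.4e-18) and the lipid presenter Cd1d1 (-2.62, adjusted p = 1.72e-06). All 4 measured immunoproteasome and activator genes were lower, with Psmb8 at -2.38 (adjusted p = 0.00709), Psmb10 at -1.21, Psme1 at -1.17 and Psme2 at -0.69. The endoplasmic reticulum chaperones differed from the dedicated loading genes in direction, since Calr (1.40, adjusted p = 4.91e-13), Pdia3 (0.59, adjusted p = 2.21e-09) and Canx (0.40, adjusted p = 1.07e-06) were higher and the trimming enzyme gene Erap1 was lower (-0.67, adjusted p = 1.04e-05). Of 20 regulators 11 were lower and 6 higher, with Irf1 (-2.31, adjusted p = 7.27e-17), Rfx5 (-2.04, adjusted p = 1.17e-13) and Stat2 (-1.63, adjusted p = 1.02e-15) lower and Nfyc (1.65, adjusted p = 1.91e-14) higher. The interferon gamma receptor genes Ifngr1 and Ifngr2 were lower, with log2 fold changes of -1.31 and -1.26. Of 2 measured class II genes Cd74 was higher (2.11, adjusted p = 0.0138).

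**Figure D4:**
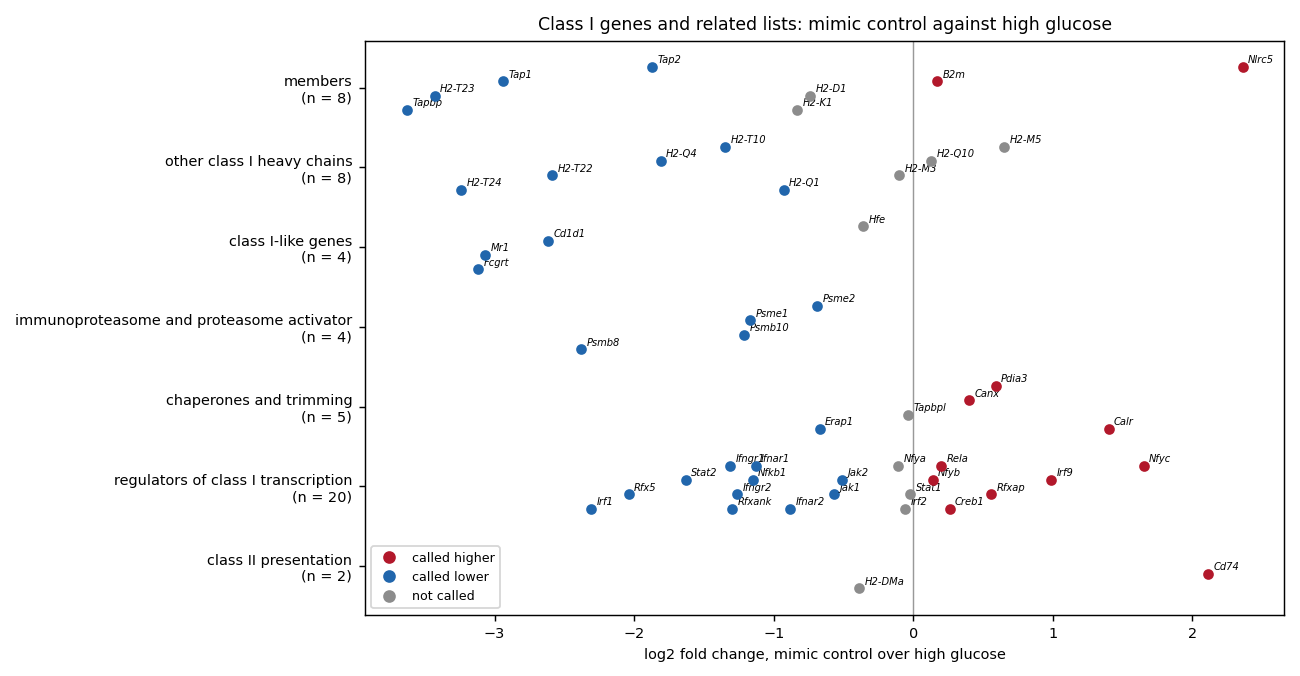
Log2 fold change of the mimic control over high glucose for the 8 tested members (top) and for the measured genes of 6 related lists, colored by call. H2-M10.4 is left out because all high glucose libraries had 0 reads. Tapbp lies at -3.63, Nlrc5 at 2.36 and all 4 immunoproteasome and activator genes lie below 0.

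The inhibitor control against high glucose is the contrast behind the choice of genes, so its values are given without a test, beside a background of 79.5% of genes called. It shares the high glucose libraries with the comparison above. Tapbp had 16.3, 14.5 and 15.1 CPM in the inhibitor control, against 166, 173 and 159 CPM in high glucose (log2 fold change -3.44). The other log2 fold changes were -2.30 for Tap1, -1.51 for H2-T23, -1.33 for H2-D1, -1.21 for H2-K1, -1.19 for Tap2, -0.90 for B2m and 1.70 for Nlrc5. In each of these genes the groups did not overlap. The share of all genes without overlap is not given here, so this is a description and not a trait of the members.

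The negative controls were compared with each other, as both were transfected in high glucose with reagents that should be inert. B2m and Nlrc5 were lower and H2-T23, Tap1 and Tap2 higher in the inhibitor control. These are 5 of 8 tested members where 74.2% of all genes were called. H2-T23 had 23, 20.6 and 20.4 CPM in the inhibitor control, against 6.07, 4.90 and 5.87 CPM in the mimic control, 3.79-fold higher (log2 fold change 1.92 ± 0.134, adjusted p = 7.83e-11). B2m had 97.0, 102 and 103 CPM in the inhibitor control, against 221, 199 and 212 CPM in the mimic control, 2.10-fold lower (-1.07 ± 0.0571, adjusted p = 1.5e-12). The heavy chain H2-T23 and the light chain thus differed in opposite directions, with no overlap between the groups in either. Nlrc5 had 19.0, 21.4 and 19.3 CPM in the inhibitor control, against 34.2, 29.9 and 30.4 CPM in the mimic control (-0.66 ± 0.067, adjusted p = 2.35e-08). Tap2 averaged 5.60 CPM in the inhibitor control and 3.49 CPM in the mimic control (0.68 ± 0.16, adjusted p = 0.000712), and Tap1 averaged 1.47 CPM in the inhibitor control and 0.947 CPM in the mimic control (0.64 ± 0.271, adjusted p = 0.0401). Tap1 overlapped between the groups, and its call was lost when inhibitor control replicate 1 or 2 or mimic control replicate 1 or 2 was left out. H2-D1 (-0.59, adjusted p = 0.272), H2-K1 (-0.38, adjusted p = 0.507) and Tapbp (0.19, adjusted p = 0.172) did not pass. With mimic replicate 2 left out of the fit they were called at the same sizes (adjusted p = 2.31e-09, 5.98e-05 and 0.0157), so that 8 of 8 were called where 75.9% of genes were. H2-M10.1, at 0.47, was not tested. Markers of cell types moved with this comparison. Of 5 measured cardiomyocyte markers 2 were higher and 2 lower in the inhibitor control, with Tnnt2 at 66.5 CPM in the inhibitor control and 16.3 CPM in the mimic control (adjusted p = 5.39e-13), and Nkx2-5 at 0.311 CPM in the inhibitor control and 2.21 CPM in the mimic control (adjusted p = 2.14e-08). Of 5 fibroblast markers 4 were higher and 1 lower, and of 9 macrophage markers Cd68 was lower, at 11.7 CPM in the inhibitor control and 41.2 CPM in the mimic control (adjusted p = 7.55e-05). Their part in the differences of the members was not tested.

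Over the related lists, 34 of 44 measured genes (77.3%) were called between the negative controls, where 74.2% of all genes were, which is near the background. Of 9 other heavy chains 4 were higher and 2 lower in the inhibitor control, with H2-T22 at 1.14 (adjusted p = 4.01e-12) and H2-Q1 at -0.65 (adjusted p = 6.48e-07). The other higher ones included H2-T24, on 21, 21 and 27 reads in the inhibitor control, against 4, 1 and 2 reads in the mimic control. They also included H2-M5, on 16, 15 and 19 reads in the inhibitor control, against 3, 2 and 1 reads in the mimic control. H2-M5 passed the filter only through the inhibitor groups, and H2-T24 was near the floor of 3 reads in the mimic control. Neither call is read here, though both genes remain in the 4 and in the 34 of 44. Of 4 class I-like genes 3 were higher, Cd1d1 at 1.52, Mr1 at 0.80 and Fcgrt at 0.79. All 5 chaperone and trimming genes were higher, led by Pdia3 (1.29, adjusted p = 3.57e-14), a thiol oxidoreductase of the loading complex, then Calr (0.66), Canx (0.55) and Erap1 (0.39). Of 4 immunoproteasome and activator genes Psmb10 was higher (0.74, adjusted p = 7.95e-06). Of 20 regulators 10 were higher and 8 lower, with Stat2 at 1.86 (adjusted p = 1.09e-15), Irf1 at 0.86 (adjusted p = 1.79e-09), Rfxap at -1.02 (adjusted p = 2.39e-13) and Rela at -0.92 (adjusted p = 8.91e-12). Of 2 class II genes H2-DMa was lower (-1.23, adjusted p = 0.000179).

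High glucose was compared with vehicle in untransfected cells. Tapbp and Nlrc5 were lower in high glucose, and no member was higher. These are 2 of 8 tested members, where 24.2% of all genes were called in either direction and 12.2% were called lower. Tapbp had 166, 173 and 159 CPM in high glucose, against 226, 203 and 220 CPM in vehicle cells (a log2 fold change of -0.38 ± 0.0968, adjusted p = 0.00666). Nlrc5 had 5.56, 6.39 and 6.44 CPM in high glucose, against 7.94, 8.62 and 8.50 CPM in vehicle (-0.45 ± 0.0793, adjusted p = 0.000333). In both genes the groups did not overlap. H2-T23 had 61.6, 60.6 and 59.8 CPM in high glucose, against 69.9, 68.2 and 68.6 CPM in vehicle, again without overlap. Its log2 fold change of -0.18 did not pass the test (adjusted p = 0.235), but did with mimic replicate 2 left out of the fit (adjusted p = 0.0134). H2-D1 (-0.10, adjusted p = 0.908), H2-K1 (-0.12, adjusted p = 0.897), Tap1 (-0.13, adjusted p = 0.705), Tap2 (-0.04, adjusted p = 0.894) and B2m (0.01, adjusted p = 0.962) did not pass either. H2-D1 and H2-K1 were also lower in high glucose without overlap, with wide SEs of 0.442 and 0.46. With mimic replicate 2 left out, their SEs were 0.0553 and 0.0664, and they still did not pass (adjusted p = 0.183 and 0.205). H2-M10.1, at 0.58 on 35 reads in high glucose and 24 in vehicle, was not tested.

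Of 44 measured related genes 13 (29.5%) were called under high glucose, where 24.2% of all genes were. H2-Q1 was the only one of 9 heavy chains (-0.23, adjusted p = 0.0278) and Fcgrt the only one of 4 class I-like genes (0.18, adjusted p = 0.00592). Psmb10 was the only one of 4 immunoproteasome and activator genes (-0.34, adjusted p = 0.0205). Of 5 chaperone and trimming genes Erap1 (-0.28, adjusted p = 0.0484) and the tapasin-related Tapbpl (-0.21, adjusted p = 0.0391) were lower. Of 20 regulators 5 were lower and 3 higher, among them Irf9 (-0.58, adjusted p = 7.7e-07), Nfyc (-0.50, adjusted p = 4.35e-05), Nfyb (0.36, adjusted p = 6.88e-05) and Nfya (-0.29, adjusted p = 0.000503), of which the NFY subunits bind the CCAAT box. No class II gene passed, with H2-DMa at -0.35 (adjusted p = 0.255) and Cd74 at -0.61 (adjusted p = 0.659).

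**Figure D5:**
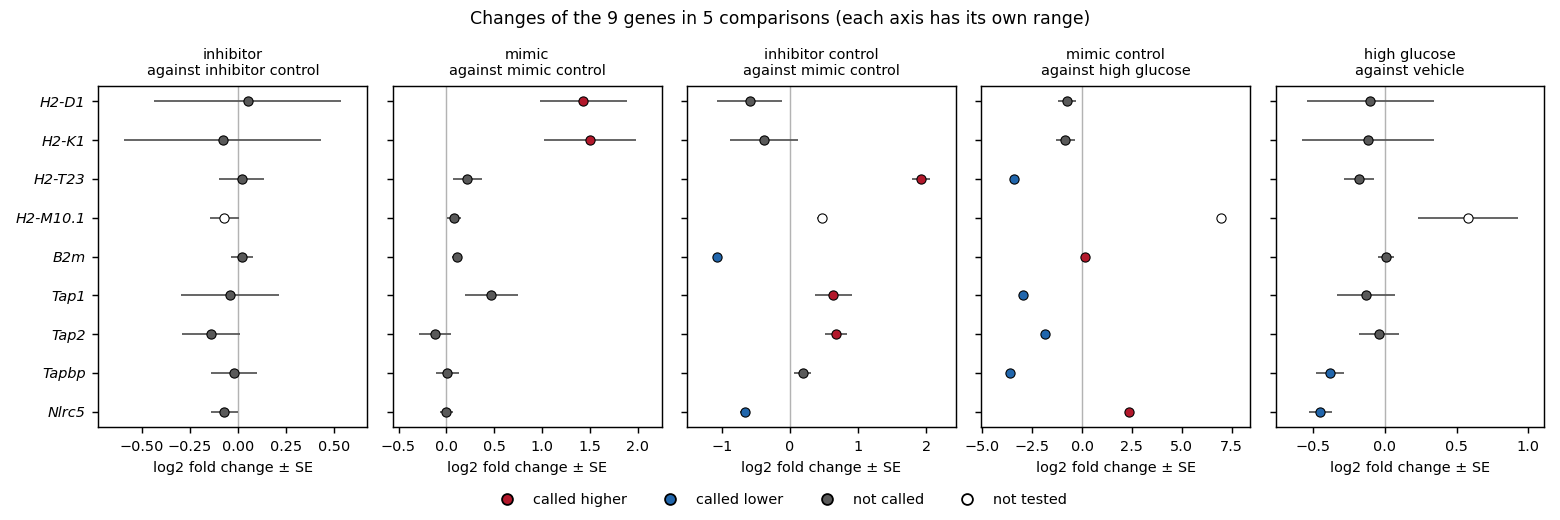
Log2 fold change with its SE of each of the 9 genes in 5 comparisons, first-named group over the other, with an axis range of its own in each panel and open points where H2-M10.1 was not tested. No point is called in the inhibitor panel, H2-D1 (1.43) and H2-K1 (1.50) are called in the mimic panel, and Tapbp (-3.63) and Nlrc5 (2.36) lie apart in the mimic control panel.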

How the data were processed

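Libraries were stranded mRNA, sequenced as paired reads, per the labels' protocols. Reads with more than 2 N bases or under 16 nt were dropped, FASTX-Toolkit 0.0.13 trimmed the rest, and HISAT2 aligned them to GRCm39 with 4 mismatches allowed. The authors deposited raw counts of uniquely mapped reads for each gene, and FPKM values in a further table. The submitters' processing notes also name DESeq2, with no role. The counter, its annotation and its strand setting are not given in the sources used here.

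Counts were tested with edgeR 4.0.16 (quasi-likelihood, R 4.3.3), with 1 term per group over all 18 libraries (12 residual degrees of freedom), after filterByExpr (minimum count 10, minimum total 15) and TMM scaling. A gene was called at a Benjamini-Hochberg adjusted p under 0.05 over 15074 genes. Levels are CPM from these counts. A count of 0 allowed up to 3 reads, 0.0791 to 0.0954 CPM by library, for counting error only. limma 3.58.1 on log2(FPKM + pseudocount) and DESeq2 1.42.0 were alternatives. The scripts were tested on simulated data.

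The 9 genes and the related lists were chosen with earlier results of these data known. Named from each list were up to 4 called genes with the largest change in each comparison, or the 2 with the smallest p where none was called. Also named were the 6 genes most like H2-M10.1 (among those with at least 1 CPM in some group) and its neighbours within 200 kb. Overlapping genes, markers, the genes described in mimic replicate 2, and Ifngr1 and Ifngr2 in the comparison of the mimic control, were named after their values were seen. Of 29112 listed genes 28849 matched GENCODE M39.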

Additional observations from a re-analysis of the deposited data

How the results depend on the processing

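Counts of called members kept within 1.5 times of the reported one under every alternative for the inhibitor, for the mimic control against high glucose and for high glucose against vehicle. For the mimic against its control, where 2 members were called, DESeq2's Wald test and the fit of the compared groups alone each called 0, and limma on log2(FPKM + 1) and on log2(FPKM + 0.1) each called 1. Leaving out 1 library at a time gave 0 to 4 called members there, with 0 without any of the mimic control replicates, 4 without mimic replicate 3 and 2 without mimic replicate 2, these being Tap2 and Tapbp, both lower. Without mimic replicate 2 the direction turned for H2-D1 (-0.11), H2-K1 (-0.13) and Tapbp (-0.25), and over all 6 libraries left out in turn the log2 fold change ran from -0.11 to 1.84 for H2-D1, from -0.13 to 1.92 for H2-K1 and from -0.25 to 0.15 for Tapbp. For the inhibitor control against the mimic control, where 5 were called, the compared groups alone gave 8, as did the shared fit without mimic replicate 2, an alternative added after seeing the data, and leaving out each of its own replicates gave 4 to 5. Tap1 was lost there in 4 of those 6 fits and with limma on log2(FPKM + 1). Over all genes, the inhibitor comparison gave 0 calls, 26 without the filter and 1 with the groups alone. Upper quartile scaling shifted the median of all genes by 0.11 for the inhibitor control against the mimic control, and limma on log2(FPKM + 0.1) by -0.14 for the mimic control against high glucose; no called member changed direction under DESeq2 size factors or upper quartile scaling. Same-numbered replicates did not deviate together (correlations -0.116 to 0.074), so no pairing by number was detected, which does not exclude it. With a replicate block the called members were 0, 2, 5, 6 and 2, as without it. The cause of these changes was not tested. Depth limits the genes with few reads, such as Tap1, with 24 to 72 reads in a mimic or mimic control library, and H2-M10.1, with 6 to 16 reads in an untransfected one.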
